A study of Mus musculus with 12 samples.

Results

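Junction and transport genes of the blood-retina barrier were followed through whole-retina RNA-Seq, 10 genes chosen by their symbols from the 50559 genes of the deposited count table. They were the junction genes Cldn5, Ocln, Tjp1, Cdh5, Esam and F11r and the transport genes Plvap, Mfsd2a, Abcb1a and Cav1, and all 10 were present and passed the filter on low counts in every comparison. The retinas came from wild-type C57BL6/J mice of mixed sexes and were collected on day 28, with 3 libraries in each of 4 groups. On day 1 every pup received 30 µg of either a control IgG (IgG and IgG+Mino groups) or APB5, a rat monoclonal antibody against mouse PDGFRβ (APB5 and APB5+Mino groups). The IgG+Mino and APB5+Mino groups were also given minocycline, a tetracycline antibiotic that dampens microglial activation, by daily intraperitoneal injection from day 5 to day 27 at 45 mg/kg. The antibody blocks the receptor in every cell that carries it, so it is no endothelial or genetic model. The study counts its RNA-Seq replicates as mice, while the labels name no animals, and p-values measure the spread between these libraries.

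The inner blood-retina barrier is formed by endothelial cells of the retinal capillaries, and the outer barrier by the retinal pigment epithelium. Tight junctions seal the gaps between neighbouring endothelial cells, efflux pumps return foreign compounds to the blood, and caveolar transcytosis through the cell is kept low. Pericytes, which PDGFB recruits through PDGFRβ, help to establish this state, and their loss in the developing retina is known to leave capillaries leaky. Endothelial cells are a small part of the whole retina, so fewer endothelial cells and less RNA per cell cannot be told apart in these bulk libraries.

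The genes lie on 9 chromosomes. Cldn5, which encodes the main sealing claudin of endothelium in the central nervous system, is a gene of a single exon on chromosome 16 (18595597 to 18597012, plus strand, GRCm39). Abcb1a, which encodes the drug efflux pump P-glycoprotein, spans 88554 bases of chromosome 5 (8710022 to 8798575, plus strand). Their promoters are printed because these were the genes with the smallest unadjusted p-values among the 10, Cldn5 in both comparisons with APB5+Mino and Abcb1a in IgG+Mino against IgG. Each runs from 250 bases before to 50 bases after the RefSeq start on GRCm38.p6, chr16:18776597-18776896 and chr5:8566841-8567140, both on the plus strand. Capitals mark 4 six-letter motifs that were searched on both strands, the ETS motifs CCGGAA and AGGAAG, the TCF/LEF motif CTTTGA and the SOX motif ACAAAG.
Cldn5 promoter: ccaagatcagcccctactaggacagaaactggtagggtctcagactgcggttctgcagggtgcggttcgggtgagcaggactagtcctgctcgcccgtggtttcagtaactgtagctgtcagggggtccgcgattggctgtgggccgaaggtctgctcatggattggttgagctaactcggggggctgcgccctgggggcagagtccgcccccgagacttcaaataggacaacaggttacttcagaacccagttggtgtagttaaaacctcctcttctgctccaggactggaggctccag
Abcb1a promoter: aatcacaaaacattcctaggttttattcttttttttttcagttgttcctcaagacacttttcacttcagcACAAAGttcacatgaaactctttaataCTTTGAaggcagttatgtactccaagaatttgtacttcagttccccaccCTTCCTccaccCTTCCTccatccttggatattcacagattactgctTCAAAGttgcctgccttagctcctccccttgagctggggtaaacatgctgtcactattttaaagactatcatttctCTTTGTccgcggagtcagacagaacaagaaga

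The Cldn5 window held none of these 4 motifs, which says only that those letters are not in it. The Abcb1a window held 2 matches of AGGAAG, both on the minus strand, 2 of the TCF/LEF motif and 2 of the SOX motif, and no match overlapped another. Of the 7 genes with a window in the RefSeq table, which are all but Cdh5, Esam and Plvap, 4 held a match to at least 1 motif (Ocln, Mfsd2a, Abcb1a and Cav1). Among 32851 promoter windows of 300 bases, 14.9% held CCGGAA, 35.4% AGGAAG, 45.2% either of these ETS motifs, 16% CTTTGA and 18.7% ACAAAG. The share of windows with at least 1 of the 4 motifs was not counted, so the 4 of 7 genes have no background to be set against. A match is a run of letters and not a measured binding site.

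Libraries held 52740545 to 59411044 counts, and levels are given as CPM, the usual scaling of counts to a common library total, after TMM normalization. The mean level of Pdgfrb, which encodes the receptor that APB5 binds, was 15.5 CPM (SD 3.97) in the 3 IgG libraries and 23.4 CPM (SD 13.2) in the 3 APB5 libraries, a log2 difference of 0.60 (edgeR quasi-likelihood, Benjamini-Hochberg adjusted p = 0.707). It was 15.4, 16.3 and 38.7 CPM in APB5 replicates 1 to 3, and without replicate 3 the difference was 0.03. APB5 replicate 3 stood apart on the first principal component, with a score of 126.9 against −53.77 to 25.56 in the other 11 libraries. In that library 13 pigment epithelium and melanocyte genes summed to 1138 CPM against 68.6 to 246.5 elsewhere, 14 microglia and macrophage genes to 340.9 CPM against 36.0 to 99.0, and 10 rod genes to 14238 CPM against 52450 to 80037. Xist, the RNA that coats the inactive X, had 47210 counts or more in all 3 IgG libraries and in replicate 3 of APB5 and of APB5+Mino, but no more than 38 in any other library. Log2 fold changes of the 10 genes that moved by more than 1.5 times without APB5 replicate 3 are therefore also given without it.

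**Figure D1:**
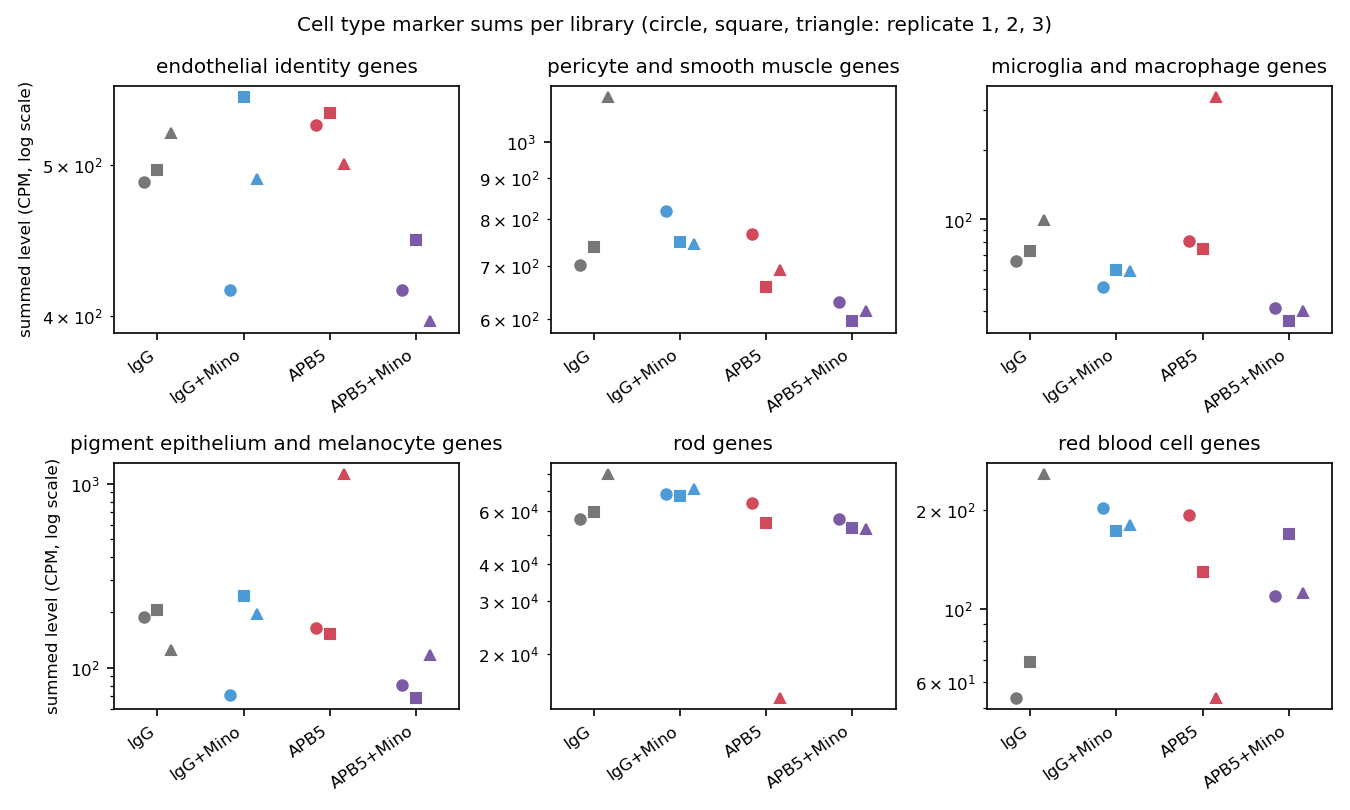
Summed level of cell type marker genes in each library (CPM, log scale; circle, square and triangle are replicates 1, 2 and 3 of each group). APB5 replicate 3 has the highest microglia and pigment epithelium sums (340.9 and 1138 CPM) and the lowest rod sum (14238 CPM), and the 3 APB5+Mino libraries have endothelial sums between 397.0 and 447.8 CPM.

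All 20 endothelial identity genes, among them Vwf, Tie1, Cd34, Kdr and Tek, were detected. Their sum was 488.0 to 524.4 CPM in IgG, 416.1 to 553.0 in IgG+Mino, 501.0 to 540.5 in APB5 and 397.0 to 447.8 in APB5+Mino. Podxl, which neurons also express, made up 43.3% of this sum, Kdr 20.4% and Flt1 18.8%.

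Per kilobase of merged GENCODE exons, the gene for the scaffold ZO-1, Tjp1, and Cldn5 had the highest levels in IgG, 11.4 ± 2.98 and 10.3 ± 4.75 CPM per kb. Cav1, whose product coats caveolae and is also made by Müller glia, followed with 7.11 ± 1.38 and Esam, an endothelial adhesion molecule of the junction, with 5.67 ± 0.767. Below them came Plvap with 3.01 ± 0.185, Mfsd2a with 2.25 ± 0.993, F11r with 1.93 ± 0.198, Abcb1a with 1.71 ± 0.203, Cdh5 with 1.30 ± 0.323 and Ocln with 0.332 ± 0.0206 CPM per kb. Neighbours in this order differed by less than 2 times the larger of their SDs, except Esam and Plvap, and Cdh5 and Ocln, which were farther apart. Merged exons include the exons of rare isoforms, which lowers the value of long, many-isoform genes such as Ocln. In APB5+Mino the order differed, with Tjp1 at 18.0 ± 2.66, Cav1 at 7.66 ± 0.901, Esam at 5.17 ± 0.155 and Cldn5 next at 4.57 ± 0.606 CPM per kb.

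**Figure D2:**
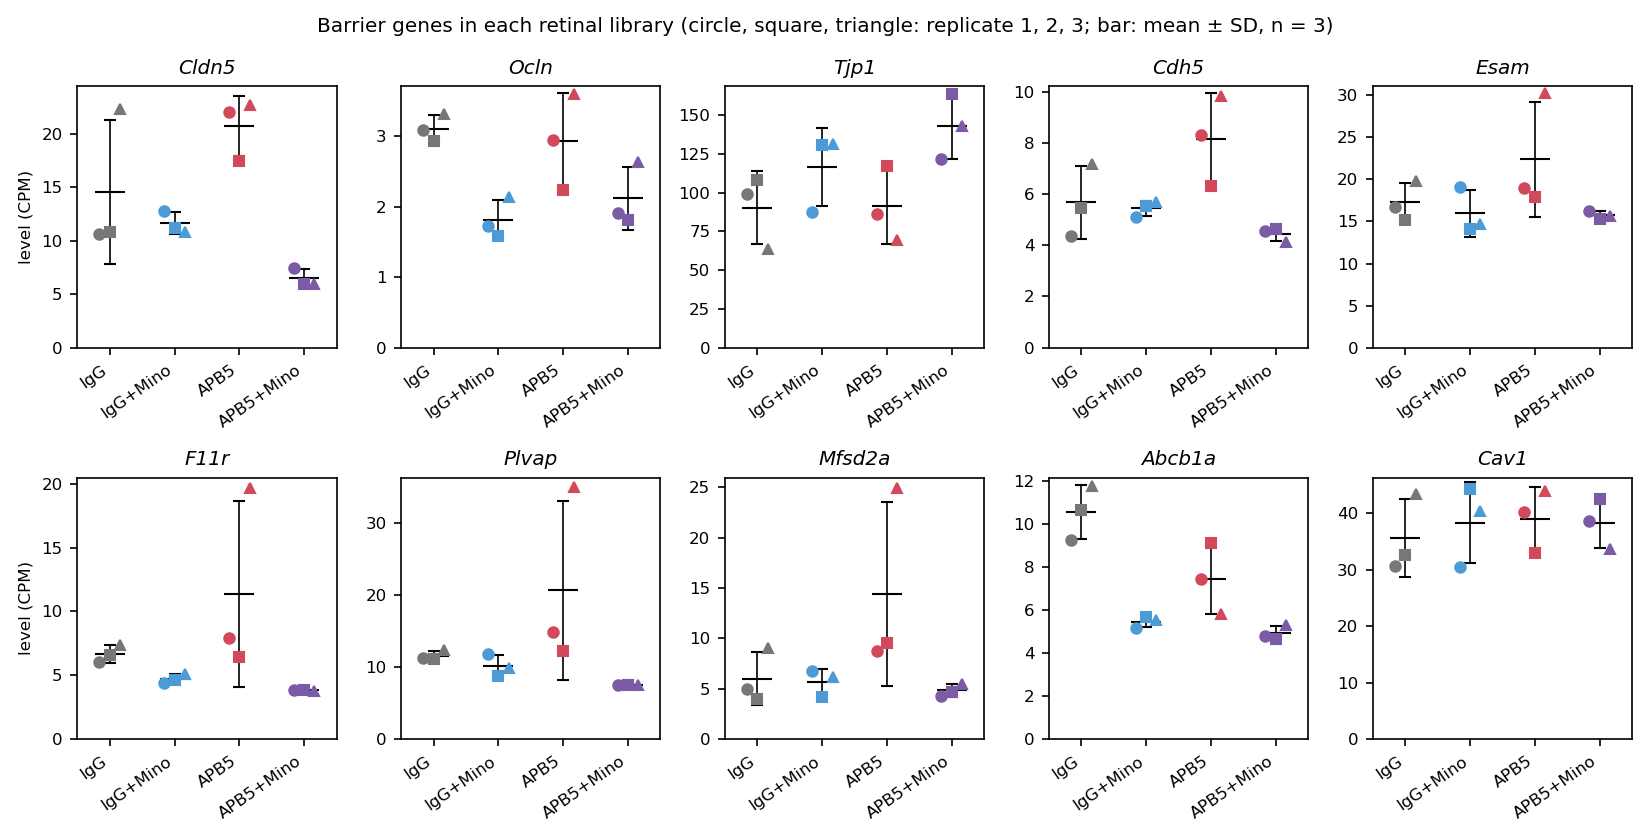
Level of each of the 10 barrier genes in every library (CPM, linear axis from 0; circle, square and triangle are replicates 1, 2 and 3; horizontal bar and whiskers are mean ± SD, n = 3). Cldn5 lies between 17.5 and 22.7 CPM in APB5 and between 5.97 and 7.47 CPM in APB5+Mino, and the highest F11r, Plvap and Mfsd2a values are all in APB5 replicate 3.

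The comparison of APB5+Mino with APB5 asks how minocycline altered the retina after PDGFRβ blockade, and it was here that the barrier genes differed most. Cldn5 fell 3.2-fold and was the only 1 of the 10 genes called, which required both an adjusted p no higher than 0.05 and a log2 fold change of 1 or more in either direction. Among all 20281 genes tested, 1.66% were called, 0.819% as lower. The gene lists of junction and transport partners gave 3 further called genes, all lower, and Tjp1 went the other way from Cldn5 in every library compared.

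Cldn5 had 22.1, 17.5 and 22.7 CPM in APB5 replicates 1 to 3 and 7.47, 5.99 and 5.97 CPM in APB5+Mino. The groups were separated by 10 CPM or more, and APB5 replicate 3, the library that stood apart, was close to APB5 replicate 1. Its log2 fold change was −1.68 with an SE of 0.16 (edgeR quasi-likelihood, Benjamini-Hochberg adjusted p = 0.0417), and the exact permutation p was 0.1, the smallest that 3 against 3 libraries can give. Deviations from the group means correlated by 0.119 to 0.169 between same-numbered libraries of these groups, against −0.133 to 0.0113 between others. Blocking the edgeR fit on the replicate number left the log2 fold change at −1.68 but gave an adjusted p = 0.0641. With the block 0 of all genes tested were called, so Cldn5 and every list gene called below were called only without it. The Cldn5 log2 fold change stayed between −1.79 and −1.61 with each library left out in turn, while its adjusted p ran from 0.000652 without APB5 replicate 3 to 0.214 without APB5+Mino replicate 2. It was above 0.05 without APB5 replicate 1 (0.105), APB5+Mino replicate 1 (0.117) and APB5+Mino replicate 3 (0.205). Over all genes those fits called 1, 0 and 0, and the fit without APB5+Mino replicate 2 called 0. The fits without APB5 replicates 2 and 3 called 1789 and 923 of all genes.

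The other junction genes did not pass. Cdh5, which encodes VE-cadherin of endothelial adherens junctions, had 8.33, 6.33 and 9.86 CPM in APB5 and 4.57, 4.62 and 4.14 CPM in APB5+Mino, without overlap and with a log2 fold change of −0.88 (SE 0.20, edgeR adjusted p = 0.0512). F11r, which encodes the adhesion molecule JAM-A of tight junctions, epithelia and leukocytes, had 7.90, 6.46 and 19.7 CPM in APB5 and 3.86, 3.86 and 3.79 CPM in APB5+Mino. Its log2 fold change of −1.56 (SE 0.42, edgeR adjusted p = 0.0605) was −0.90 without APB5 replicate 3. Esam gave −0.51 (edgeR adjusted p = 0.13) and Ocln, the tight junction protein occludin, −0.47 (edgeR adjusted p = 0.238), the latter with overlapping groups. Without APB5 replicate 3 they were −0.23 and −0.29.

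Tjp1 had 86.4, 117.2 and 69.8 CPM in APB5 and 121.5, 163.6 and 143.4 CPM in APB5+Mino. All 3 treated libraries lay above all 3 untreated ones, by as little as 4 CPM between the nearest pair. The log2 fold change was 0.64 (SE 0.21, edgeR adjusted p = 0.0807). ZO-1 is also made by neurons, glia and pigment epithelium, and Tjp1 was by far the most abundant of the 10 genes in CPM.

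Of the transport genes, Plvap encodes the diaphragm protein of fenestrae and caveolae and is normally scarce in mature barrier capillaries but plentiful in the choroid. It had 14.9, 12.2 and 34.9 CPM in APB5 and 7.43, 7.43 and 7.53 CPM in APB5+Mino. The APB5+Mino libraries were nearly alike, and APB5 replicate 3 was more than 2 times as high as either of the other APB5 libraries. The log2 fold change was −1.47 (SE 0.39, edgeR adjusted p = 0.0591), and −0.86 without APB5 replicate 3.

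Mfsd2a, the lysolipid transporter that restrains caveolar transcytosis at the barrier and is also made by pigment epithelium, had 8.78, 9.51 and 24.9 CPM in APB5 and 4.30, 4.70 and 5.50 CPM in APB5+Mino. Here too the groups did not overlap and APB5 replicate 3 was highest. Its log2 fold change was −1.57 (SE 0.42, edgeR adjusted p = 0.0593), and −0.92 without APB5 replicate 3. For F11r, Plvap and Mfsd2a the marker sums of pigment epithelium and microglia were highest in that same library, and their part in these values was not tested. Abcb1a gave −0.60 (edgeR adjusted p = 0.0876), and Cav1 −0.03 with a 95% interval from −0.37 to 0.31 (0.06 without APB5 replicate 3).

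Across the 10 genes, 9 had a negative log2 fold change and the median was −0.74, against −0.02 over all genes tested. The groups did not overlap for 8 genes, 7 lower (all but Ocln, Tjp1 and Cav1) and 1 higher in APB5+Mino, but 46.5% of all genes tested also did not overlap in this comparison. Without APB5 replicate 3 it was again 8 genes, 7 lower and 1 higher, against 56.5% of all genes. An unadjusted p of at most 0.05 was reached by 8 of the 10 genes and by 35.9% of all genes. DESeq2 called 4 genes, Cldn5, F11r, Plvap and Mfsd2a, all lower, and 7.63% of all genes. Without APB5 replicate 3, edgeR's adjusted p was at most 0.05 for 7 genes (Cldn5, Cdh5, F11r, Plvap, Mfsd2a and Abcb1a lower, Tjp1 higher) and for 26.6% of all genes, yet only Cldn5 reached the fold threshold. Without APB5 replicate 2, in contrast, 5 were called (Cldn5, Cdh5, F11r, Plvap and Mfsd2a), beside 8.59% of all genes.

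**Figure D3:**
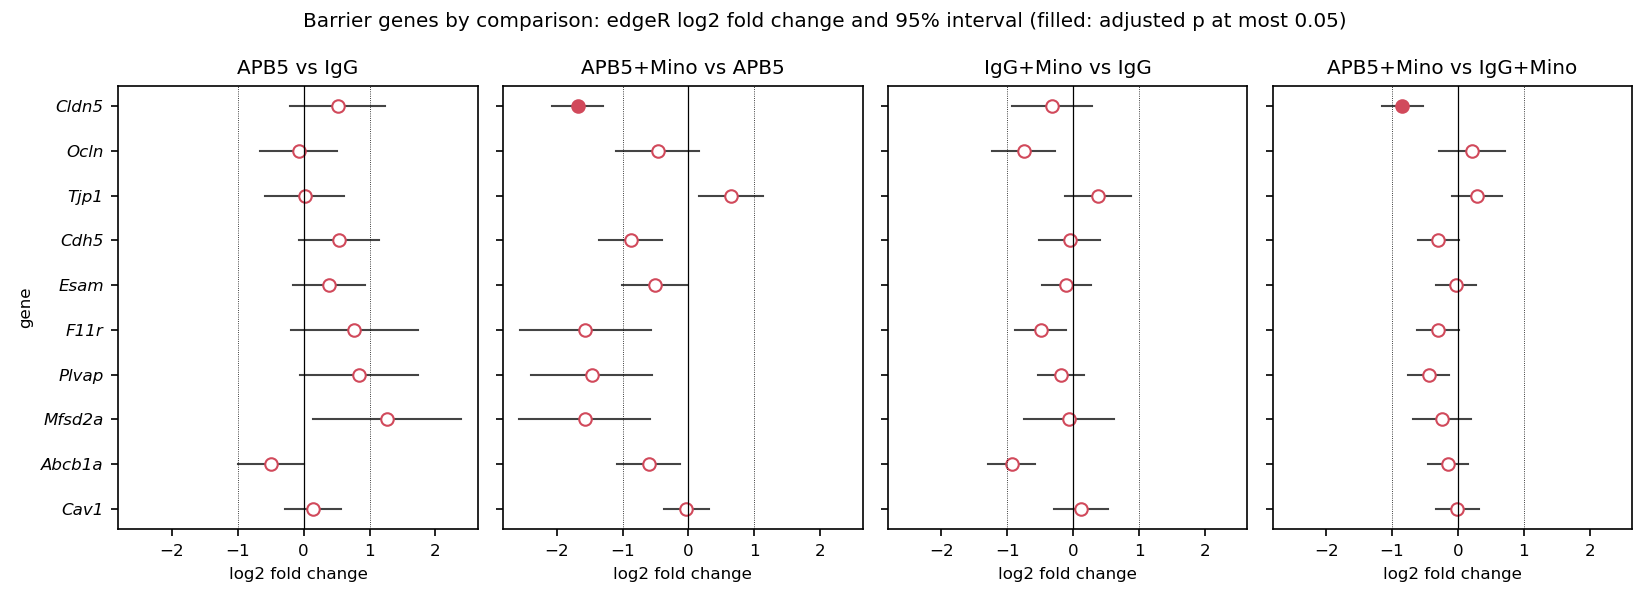
Log2 fold change of each barrier gene in the 4 pairwise comparisons, with its 95% interval from edgeR's quasi-likelihood fit; filled points have an adjusted p of at most 0.05 and dotted lines mark a log2 fold change of 1 in either direction. Cldn5 is filled at −1.68 in APB5+Mino against APB5 and at −0.84 in APB5+Mino against IgG+Mino, and no other point is filled.

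Partners of these genes were followed in lists of junction and transport genes. Of 16 other tight junction genes 0 were called (edgeR, against 1.66% of all genes), and the median log2 fold change was −0.05. An unadjusted p of at most 0.05 was reached by 6, all lower, near the share of 35.9% over all genes. DESeq2 called 3, against 7.63% of all genes. The smallest p-values were those of Cldn3 (−2.02, edgeR adjusted p = 0.0512), the tricellular junction gene Lsr (−1.44, edgeR adjusted p = 0.0601) and Cgnl1, a cingulin-like junction protein (−0.40, edgeR adjusted p = 0.0607). Of 13 adherens and gap junction genes 1 was called: Gja1, which encodes connexin 43 of astrocytes, Müller glia and vessels, fell from 36.7 ± 16.4 to 11.6 ± 3.58 CPM (log2 fold change −1.67, SE 0.36, edgeR adjusted p = 0.0499).

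Of 15 caveolae and transcytosis genes 0 were called. An unadjusted p of at most 0.05 was reached by 3 as higher and 5 as lower, against 35.9% of all genes in either direction. DESeq2 called 4 as lower, against 7.63% of all genes in either direction. The transferrin receptor gene Tfrc (93.8 ± 15.3 CPM in APB5, 166.9 ± 15.1 in APB5+Mino, log2 fold change 0.83, edgeR adjusted p = 0.0461) and the insulin receptor gene Insr (0.67, edgeR adjusted p = 0.0482) passed the adjusted p but not the fold threshold. Both receptors carry ligands across brain endothelium, and both are also made by neurons. Among the genes with the smallest p-values as lower were Fcgrt, the neonatal Fc receptor (−1.84, edgeR adjusted p = 0.055), the fatty acid receptor Cd36 (−1.05, edgeR adjusted p = 0.0597) and the caveolar coat gene Cavin1 (−1.40, edgeR adjusted p = 0.077).

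Of 19 efflux and solute transporter genes 2 were called, both lower, against 1.66% of all genes. An unadjusted p of at most 0.05 was reached by 2 as higher and 8 as lower, against 35.9% of all genes in either direction. DESeq2 called 2 as lower, against 7.63% of all genes in either direction. Slco2b1, an organic anion uptake transporter, fell from 4.39 ± 1.55 to 1.27 ± 0.0251 CPM (log2 fold change −1.76, SE 0.29, edgeR adjusted p = 0.0447). Slc38a5, an amino acid transporter, fell from 1.77 ± 0.577 to 0.469 ± 0.0583 CPM (−1.85, SE 0.32, edgeR adjusted p = 0.0461). Slco1a4, an organic anion transporter of barrier endothelium, gave −0.91 with edgeR adjusted p = 0.0461, just under the fold threshold. The efflux pump gene Abcc1 gave 0.58 (edgeR adjusted p = 0.0514) and Abcc5 0.29 (edgeR adjusted p = 0.107).

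Without APB5 replicate 3, where 4.48% of all genes were called, the counts of called genes in these 4 lists were 2 of 16, 1 of 13, 1 of 15 and 2 of 19, all lower. Gja1 (−1.25), Slco2b1 (−1.44) and Slc38a5 (−1.55) were called with and without that library. Cldn3 (−1.88, edgeR adjusted p = 0.0216) and Fcgrt (−1.09, edgeR adjusted p = 0.0013) were called only without it. Levels of Cldn3 were low, with a mean of 0.581 CPM in APB5 replicates 1 and 2 and 0.131 ± 0.0999 CPM in APB5+Mino. The values of Lsr and Cavin1 moved to −0.85 and −0.68, each with APB5 replicate 3 at more than 2 times the level of the other APB5 libraries.

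Some general endothelial genes fell as well. In this comparison 1.66% of all genes tested were called, 0.819% as lower, a share for the called counts of the 3 lists that follow. Of the 20 endothelial identity genes 3 were called, all lower: Vwf, the von Willebrand factor (−1.76, edgeR adjusted p = 0.043), the receptor gene Tie1 (−1.50, edgeR adjusted p = 0.0461) and the sialomucin gene Cd34 (−1.33, edgeR adjusted p = 0.0476). An unadjusted p of at most 0.05 was reached by 13 of them, all lower, against 35.9% of all genes in either direction. The median log2 fold change of the 20 was −0.82. Of 13 tested pericyte and smooth muscle genes 1 was called (Rgs5, −1.36, edgeR adjusted p = 0.0461; list median −1.28), and of 14 microglia and macrophage genes 1 (Cx3cr1, −3.84, edgeR adjusted p = 0.0447; list median −2.67). Without APB5 replicate 3 the medians of these 3 lists were −0.66, −0.58 and −1.29, and Cd34 (−0.99) and Rgs5 (−0.99) no longer reached the fold threshold. The part of these cell types in the level of each barrier gene was not tested.

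Expressed as a share of the summed endothelial genes, Cldn5 was 4.16%, 3.24% and 4.53% in APB5 and 1.80%, 1.34% and 1.50% in APB5+Mino. The groups again did not overlap, and the log2 difference of this ratio was −1.36 (exact permutation p = 0.1, the smallest possible). Since 3 genes made up most of the sum, the ratio was also taken to the geometric mean of the 20 genes, a choice made after seeing the data, and was then −0.83, again without overlap. On the sum 5 genes were lower without overlap (Cldn5, Cdh5, F11r, Plvap and Mfsd2a) and 1 higher (Tjp1), while on the geometric mean 3 were lower (Cldn5, F11r and Plvap) and 4 higher (Ocln, Tjp1, Esam and Cav1). Of all genes tested, 49.2% did not overlap on the sum and 76% on the geometric mean, so the counts of 6 and 7 of the 10 genes were near the background. Cdh5 had a log2 difference of −0.54 on the sum and −0.01 on the geometric mean. Relative Tjp1 was 16.3%, 21.7% and 13.9% in APB5 and 29.2%, 36.5% and 36.1% in APB5+Mino.

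**Figure D4:**
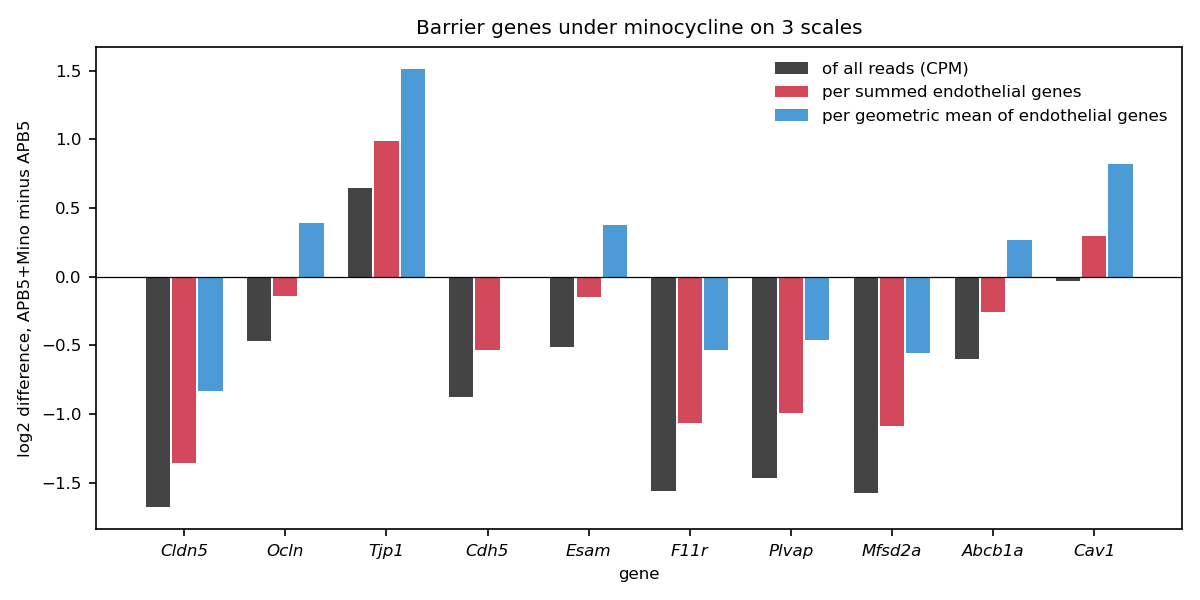
Log2 difference of each barrier gene between APB5+Mino and APB5 on 3 scales: edgeR log2 fold change of CPM (dark), level per summed endothelial identity genes (red) and level per geometric mean of those genes (blue). Cldn5, F11r, Plvap and Mfsd2a are below 0 on all 3 scales, Tjp1 is above 0 on all 3, and Ocln, Esam and Abcb1a change sign on the geometric mean.

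The comparison of APB5 with IgG asks what PDGFRβ blockade alone did. None of the 10 genes was called (0 of 10 by edgeR and by DESeq2), and 0% of the 20350 genes tested were called by edgeR and 0.428% by DESeq2. At an unadjusted p of at most 0.05 there was 1 gene, Mfsd2a, against 7.23% of all genes. Of the 10 log2 fold changes 8 were positive, with a median of 0.45 against 0.00 over all genes.

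Mfsd2a had 5.01, 4.00 and 9.02 CPM in IgG and 8.78, 9.51 and 24.9 CPM in APB5. IgG replicate 3 overlapped the APB5 range, and APB5 replicate 3 was far above its group. The log2 fold change was 1.27 (SE 0.48, unadjusted p = 0.0322, edgeR adjusted p = 0.664) and 0.61 without APB5 replicate 3. Cldn5 had 10.6, 10.8 and 22.4 CPM in IgG, so that IgG replicate 3 lay within the APB5 range of 17.5 to 22.7 CPM. Its log2 fold change was 0.51 (edgeR adjusted p = 0.696). With each library left out in turn it ran from 0.33 (without IgG replicate 1) to 0.94 (without IgG replicate 3). The edgeR adjusted p was 0.559 or higher in each of these fits. IgG replicate 3 also had the highest pericyte and smooth muscle sum (1137 CPM) and red blood cell sum (258.1 CPM) of all 12. Its rod sum (80037 CPM) was the highest as well. Most of the pericyte and smooth muscle sum in IgG came from Vtn, with a mean of 737.5 CPM (SD 236). The part of these genes in the Cldn5 values was not tested.

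Plvap (0.84), F11r (0.77) and Esam (0.38) had log2 fold changes of 0.23, 0.11 and 0.10 without APB5 replicate 3. Cdh5 gave 0.53 and 0.37 without that library. The 3 IgG libraries of Plvap spanned only 11.1 to 12.4 CPM, and APB5 replicate 2 with 12.2 CPM lay inside that range. Abcb1a was the only 1 of the 10 genes without overlap, with 9.24, 10.6 and 11.7 CPM in IgG and 7.43, 9.13 and 5.81 CPM in APB5 (log2 fold change −0.49, edgeR adjusted p = 0.664), in a comparison in which 15.7% of all genes did not overlap. Ocln (−0.08), Tjp1 (0.01) and Cav1 (0.14) had 95% intervals from −0.67 to 0.51, from −0.58 to 0.61 and from −0.28 to 0.57, and were −0.25, 0.18 and 0.05 without APB5 replicate 3. In the junction and transport lists 0 of 16, 0 of 13, 0 of 15 and 0 of 19 genes were called. Xist was high in all IgG libraries and in 1 of the 3 APB5 libraries, so without APB5 replicate 3 the antibody and the Xist status cannot be told apart.

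The comparison of IgG+Mino with IgG asks what minocycline did without PDGFRβ blockade. None of the 10 genes was called (0 of 10 by edgeR and by DESeq2), and 0.0298% of 20143 genes were called by edgeR. All IgG libraries were high and all IgG+Mino libraries low in Xist, so minocycline and the Xist status cannot be told apart here.

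Abcb1a showed the clearest separation, with 9.24, 10.6 and 11.7 CPM in IgG and 5.15, 5.69 and 5.54 CPM in IgG+Mino. Every IgG+Mino library was more than 3 CPM below every IgG library. The log2 fold change was −0.93 (SE 0.16, unadjusted p = 0.000186, edgeR adjusted p = 0.341), and DESeq2 gave an adjusted p = 0.000346 at a fold below the threshold. With each library left out in turn it stayed between −1.02 and −0.85. Ocln was 2.93 to 3.32 CPM in IgG and 1.59 to 2.14 CPM in IgG+Mino (−0.75, edgeR adjusted p = 0.585), and F11r 6.05 to 7.41 and 4.37 to 5.13 CPM (−0.49, edgeR adjusted p = 0.585). These 3 of 10 genes did not overlap, as did 14.4% of all genes, and 3 of 10 against 8.37% had an unadjusted p of at most 0.05. Cldn5 gave −0.32 with IgG replicate 3 and 0.13 without it. The log2 fold changes of Cdh5, Esam, Plvap, Mfsd2a and Cav1 lay between −0.18 and 0.12. Of the 20 endothelial identity genes 0 were called and 10 had an unadjusted p of at most 0.05, all lower, with a median of −0.58.

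The comparison of APB5+Mino with IgG+Mino asks whether blockade left a difference between treated retinas. Cldn5 had 12.8, 11.2 and 10.9 CPM in IgG+Mino and 7.47, 5.99 and 5.97 CPM in APB5+Mino, with no overlap and narrow groups. Its log2 fold change of −0.84 (SE 0.14, 1.80-fold lower, edgeR adjusted p = 0.0165) passed the adjusted p but not the fold threshold, so that 0 of 10 genes were called (also 0 by DESeq2), against 1.23% of 20049 genes, and 1 of 10 passed the adjusted p alone, against 8.09%. Leaving out single libraries kept the Cldn5 value between −0.96 and −0.77, with an adjusted p above 0.05 without IgG+Mino replicate 3 (0.0679), APB5+Mino replicate 2 (0.0929) and APB5+Mino replicate 3 (0.106). In edgeR fits of all 12 libraries the adjusted p was 0.153, and 0.171 with Xist as a covariate, with 0 of all genes called in either.

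Plvap was 8.79 to 11.8 CPM in IgG+Mino and 7.43 to 7.53 CPM in APB5+Mino (−0.44, edgeR adjusted p = 0.0726). Cdh5 (−0.29, edgeR adjusted p = 0.18) and F11r (−0.30, edgeR adjusted p = 0.194) also did not overlap, making 4 of 10 genes, all lower, against 35.2% of all genes tested. Abcb1a was 5.15 to 5.69 CPM in IgG+Mino and 4.64 to 5.31 CPM in APB5+Mino (−0.15). All 6 minocycline libraries lay below all 6 libraries without the drug, but IgG+Mino replicate 2 (5.69 CPM) and APB5 replicate 3 (5.81 CPM) nearly met. The share of all genes separated in this way was not counted, and between the IgG groups the drug and the Xist status cannot be told apart. Cav1 gave −0.01 with a 95% interval from −0.34 to 0.32. These comparisons share libraries, so that agreement between them is not independent.

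Whether minocycline altered the barrier genes differently after APB5 and after IgG was tested by the interaction over all 12 libraries. None of the 10 genes was called by edgeR (0 of 10, against 0.0141% of 21228 genes), and 5 had an unadjusted p of at most 0.05 against 17.1% of all genes, all 5 with a more negative minocycline difference after APB5. They were Cldn5 (−1.35, SE 0.36, edgeR adjusted p = 0.156), Mfsd2a (−1.49, edgeR adjusted p = 0.227), Plvap (−1.27, edgeR adjusted p = 0.197), F11r (−1.05, edgeR adjusted p = 0.273) and Cdh5 (−0.82, edgeR adjusted p = 0.212). DESeq2 called Cldn5 (−1.36, adjusted p = 0.0176) and 1.83% of all genes. Of 12 edgeR fits with 1 library left out, only that without IgG replicate 3 called Cldn5 (−1.79, edgeR adjusted p = 0.0227). In the other 11 it was not called, with values up to −1.165 (without IgG replicate 1) and an edgeR adjusted p of up to 0.368. Without APB5 replicate 3 the values of Mfsd2a, Plvap and F11r were −0.86, −0.69 and −0.42. The difference of Abcb1a between the 2 minocycline effects was 0.35 with a 95% interval from −0.20 to 0.89 (0.17 without APB5 replicate 3).

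Over the 12 libraries the genes fell into a few patterns, given here as Pearson correlations of log2 CPM that describe libraries sharing groups and depth. F11r and Plvap had the highest r over all 12 (0.966, and 0.89 without APB5 replicate 3), and Esam and Mfsd2a had 0.931 (0.79 without it). Without that library Cldn5 and Plvap were the closest pair (0.916, and 0.796 with it). Cldn5 followed Cdh5 (0.897 and 0.903) and ran opposite to Tjp1 (−0.844 and −0.809). As the ratio of the highest to the lowest library, Cav1 had the narrowest range of the 10 genes (1.45, from 30.4 to 44.2 CPM) and Mfsd2a the widest (6.22, from 4.00 to 24.9 CPM).

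Among 15815 genes with a mean of at least 1 CPM, the gene most like Cldn5 over the 12 libraries was Ubald2 (r = 0.973), and those most like Tjp1 were Clock (0.99), Ankrd17 and Lmbrd2 (0.987 each). F11r was most like Ctss (0.993), a microglial and macrophage cathepsin, and Plvap most like the tetraspanin gene Cd9 (0.991). Mfsd2a was most like the class I histocompatibility genes H2-K1 and H2-D1 (0.953 each), which fell to 0.873 and 0.868 without APB5 replicate 3. Abcb1a was most like Msh6 (0.967), with the endothelial receptor gene Tek also among its closest 3 (0.95). Plvap overlaps Gtpbp3 on the opposite strand, and since the sources do not state whether counting used the strand, reads in the overlap cannot be assigned with certainty.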

How the data were processed

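RNA-Seq of 12 retinal samples, 3 in each of 4 groups, was analysed from the gene table deposited by the authors, in which every value is a read count for 1 gene, not normalized. It repeats 3 columns with the same values, and the repeats were left out. Per the submitters' processing notes, reads were made with bcl2fastq 2.20 and aligned by the DRAGEN RNA pipeline to mm39; the DRAGEN version is not given in the sources used here. Libraries were stranded, poly-A selected and read from 1 end. The authors' deposited result tables hold log2 fold changes, p-values and group means of their own comparisons and were not used.

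The packages edgeR 4.0.16, DESeq2 1.42.0 and limma 3.58.1 were run in R 4.3.3. Genes were filtered by filterByExpr, scaled by TMM and compared by edgeR's quasi-likelihood test (prior count 2, two-sided) in fits of the 6 libraries compared, or of all 12 for the interaction, with Benjamini-Hochberg adjustment over all genes tested. Calls required an adjusted p no higher than 0.05 together with a log2 fold change of 1 or more in either direction. Total counts were 52740545 to 59411044, and a count of 3 equals 0.0456 to 0.0585 CPM. The fits were tested on simulated data. With 3 libraries a group, no exact permutation test can give a two-sided p under 0.1.

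The 10 genes, the gene lists and the rule for named genes were chosen with earlier results of these data known. Named genes were the 10, Pdgfrb, Xist, the called genes of each list and up to 3 a direction with the smallest p, and the 3 genes most correlated with each. Of the 17 tight junction genes listed, Pals1 had no row here. Cornea and conjunctiva epithelium genes summed to at most 7.81 CPM in any library, and Müller glia genes to 3590 to 4870 CPM. Positions are from GENCODE M39 (GRCm39) and promoters from RefSeq (GRCm38.p6).

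Neither labels nor methods say what a replicate number marks. For APB5+Mino against APB5, deviations from the group means correlated by 0.119 to 0.169 between same-numbered libraries and by −0.133 to 0.0113 between others. The main fit and the exact permutation tests there did not use these pairs, and a fit blocked on the replicate number was run beside them. In each other comparison at least 1 correlation between same-numbered libraries was under 0.1. Alternatives were RLE scaling, library size only, DESeq2, other count filters, all 12 libraries in a fit, the replicate block, Xist as a covariate, other thresholds and each library left out. Added after seeing the data were fits of the libraries low in Xist, non-overlap counts and list genes without APB5 replicate 3 and the geometric mean of endothelial genes.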

Additional observations from a re-analysis of the deposited data

How the results depend on the processing

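For APB5+Mino against APB5, where 1 of the 10 genes was called, 0 were called with library size only and with the replicate block, 2 without a count filter and in the libraries low in Xist, and 4 with DESeq2, with all 12 libraries in a fit, with Xist as a covariate and at an unadjusted p with the fold threshold. Over all genes the count of 336 became 5, 0, 568, 572, 1548, 1623, 1733 and 1974 in the same order. Leaving out single libraries gave counts from 0 to 5. For APB5 against IgG the count of 0 became 3 with Xist as a covariate (F11r, Plvap and Mfsd2a), while that over all genes rose from 0 to 1003, and 1 (746 over all genes) at an unadjusted p with the fold threshold. For APB5+Mino against IgG+Mino it became 1 without a fold threshold (1621 over all genes). For the interaction it became 1 with DESeq2, 2 with Xist as a covariate (Plvap and Mfsd2a) and 4 at an unadjusted p with the fold threshold, while that over all genes went from 3 to 388, 668 and 1507, and it ran from 0 to 1 with each library left out. For IgG+Mino against IgG it was 0 under every alternative run. The replicate block changed no other call. Within groups, the Xist status varied only in APB5 and APB5+Mino, where replicate 3 alone was high. APB5 replicate 3 is also the library that stood apart, so within APB5 the Xist covariate and that library cannot be told apart.

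Some log2 fold changes changed sign. With Xist as a covariate they were 0.20 for Ocln and −0.15 for Tjp1 in APB5 against IgG, 0.0472 for Cdh5, 0.21 for Esam, 0.20 for F11r, 0.49 for Plvap and 0.70 for Mfsd2a in IgG+Mino against IgG, 0.0064 for Cav1 in APB5+Mino against IgG+Mino, and −0.17 for Ocln in the interaction. In the libraries low in Xist, Cav1 was 0.15 in APB5+Mino against APB5 and 0.0796 in APB5+Mino against IgG+Mino. In the latter comparison Esam was 0.0039 and Cav1 0.0243 with library size only, and Cav1 was 0.0038 with the replicate block. Leaving out single libraries changed signs in the pairwise comparisons but not in the interaction. The ranges were −0.253 to 0.0789 (Ocln) and −0.207 to 0.178 (Tjp1) for APB5 against IgG and −0.14 to 0.0598 (Cav1) for APB5+Mino against APB5. For minocycline after IgG they were −0.501 to 0.125 (Cldn5), −0.203 to 0.155 (Cdh5), −0.254 to 0.0048 (Esam) and −0.287 to 0.344 (Mfsd2a), and between both minocycline groups −0.109 to 0.125 (Esam) and −0.149 to 0.104 (Cav1).

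Relative to the geometric mean of the endothelial genes, signs changed to −0.056 for Cav1 in APB5 against IgG, to 0.39 for Ocln, 0.37 for Esam and 0.27 for Abcb1a in APB5+Mino against APB5, to 0.28 for Cldn5, 0.40 for Esam, 0.0166 for F11r and 0.32 for Plvap in IgG+Mino against IgG, and to −0.0265 for Abcb1a in APB5+Mino against IgG+Mino. The causes were not tested. The lowest count of the 10 genes in any library was 90 (Ocln), where counting error is not small beside the spread between libraries.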
